A study of Mus musculus with 9 samples.

Results

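The interleukin-1 (IL-1) family holds cytokines that start inflammation together with the receptors and blockers that limit them. The 9 genes described here were Il1a, Il1b, Il1rn, Il18, Il18bp, Il1r1, Il1r2, Il1rap and Il1rl1, listed by symbol with earlier results of these data known. Each matched 1 row, by Ensembl identifier, among the 55655 rows of both deposited expression tables. IL-1α and IL-1β, the products of Il1a and Il1b, bind the same receptor, IL1R1, which then recruits the accessory chain IL1RAP and signals through the adaptor MyD88 to NF-κB. The antagonist IL1RN occupies IL1R1 without a signal, and IL1R2 is a decoy that binds IL-1 and has no signalling domain. IL-18, like IL-1β, is made as a precursor that caspase-1 cuts, and IL18BP is the secreted protein that neutralizes it. ST2, encoded by Il1rl1, is the receptor for IL-33 and also pairs with IL1RAP. Macrophages are a major source of IL-1, and they transcribe Il1a and Il1b after contact with bacterial products.

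The question of the study was how photobiomodulation (PBM), irradiation with near-infrared laser light, alters inflammatory macrophages. Bone marrow of wild type C57BL/6 mice aged 6 to 8 weeks was cultured for 7 days with 10 ng/mL M-CSF, which drives marrow cells to become resting (M0) macrophages. The M1 group received lipopolysaccharide (LPS), a bacterial cell wall component, and interferon-γ (IFN-γ) to induce the inflammatory M1 state, and the M1 + PBM group received both agents and PBM. RNA of the M1 and M1 + PBM groups was examined after 12 hours of induction. Each group had 3 libraries. The paper describes the sequencing experiment as independently repeated, while the labels tie no library to a mouse or culture, so the p-values measure the spread between libraries, which may be technical in part. Levels are in FPKM, a fragment count scaled by transcript length and by library depth, so that genes of different length stand on 1 scale. Regular steps among low values gave a rough depth of 31380000 to 42810000 fragments per library. No more than 22.8% of low values lay on these steps, so the depth and the fragment numbers given below for single genes are estimates only.

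The promoters of Il1a, Il1b and Il18 are shown because these 3 cytokine genes differed in their values, Il1a and Il1b being lower with PBM by the thresholds explained below and Il18 not. The sequences are those of RefSeq on GRCm38.p6, the 250 bases before the annotated start, written from 5′ to 3′ on the strand of the gene. Capitals mark matches to TATAAA (the TATA box), TTNNGNAA (C/EBP), TGANTCA (AP-1) and GAGGAA (PU.1), looked for on both strands, as was the NF-κB motif, GGG and TTCC with 3 bases between them.
Il1a promoter, chr2:129309973-129310222 (minus strand): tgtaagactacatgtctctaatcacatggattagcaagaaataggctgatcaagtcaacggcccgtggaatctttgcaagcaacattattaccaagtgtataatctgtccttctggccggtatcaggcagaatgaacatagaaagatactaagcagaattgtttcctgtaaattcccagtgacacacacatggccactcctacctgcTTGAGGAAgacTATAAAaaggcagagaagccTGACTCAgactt
Il1b promoter, chr2:129371140-129371389 (minus strand): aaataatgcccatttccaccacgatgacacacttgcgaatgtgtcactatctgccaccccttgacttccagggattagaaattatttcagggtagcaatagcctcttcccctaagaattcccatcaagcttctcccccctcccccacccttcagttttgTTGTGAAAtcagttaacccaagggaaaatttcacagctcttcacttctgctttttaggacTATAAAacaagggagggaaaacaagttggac
Il18 promoter, chr9:50554450-50554699 (plus strand): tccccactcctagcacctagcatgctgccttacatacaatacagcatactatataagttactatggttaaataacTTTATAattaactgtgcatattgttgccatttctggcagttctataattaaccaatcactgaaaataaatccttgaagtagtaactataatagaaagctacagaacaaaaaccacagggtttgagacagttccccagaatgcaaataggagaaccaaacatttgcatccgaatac
The Il1a window held a TATA match 32 to 27 bases before the start, a C/EBP match at 43 to 36 bases that overlaps a PU.1 match at 41 to 36 bases, and an AP-1 match at 12 to 6 bases. The Il1b window held a TATA match at nearly the same place, 31 to 26 bases before the start, and a C/EBP match at 91 to 84 bases. In the Il18 window the TATA letters lay only on the opposite strand, 175 to 170 bases before the start. Among all 32851 mouse promoters of this length, 12.4% held the TATA letters, 36.8% those of C/EBP, 6.75% those of AP-1 and 23.3% those of PU.1. The NF-κB letters, found in 4.65% of promoters, were in none of these 3 windows. A match of letters does not show binding.

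The labels were checked against marker genes. All 8 macrophage markers (Adgre1, Itgam, Csf1r, Cd68, Mertk, Fcgr1, Lyz2 and Cd14) were above an FPKM of 1 in every group, with a summed FPKM of 5499 to 10341 per library. The summed FPKM of 8 genes of the M1 state, the iNOS gene Nos2, Cd86, Il6, Tnf, Il12b, Cxcl9, Cxcl10 and Irf1, was 1190, 1022 and 1285 in M1 and 709.9, 925.5 and 634.9 in M1 + PBM (replicates 1 to 3). In M0 it was 28.9, 26.9 and 282.7. M0 replicate 3 therefore stood apart, and 8 stromal genes such as Col1a1 and Pdgfra also summed to 229.8 in it, against 10.9 and 8.31 in M0 replicates 1 and 2. M1 replicate 2 was the library with an FPKM above 0 for the liver gene Alb, at 9.01, and its 8 liver genes summed to 19.1 against at most 3.61 in any other library. Summed markers of dendritic and lymphoid cells stayed at or below 1.58 in every library. The neutrophil list summed to 14.7 to 28.4 in M0, 111.8 to 164.2 in M1 and 105.3 to 109.8 in M1 + PBM, most of it Csf3r. S100a9 and Ly6g were listed at 0 in every library. Unlike these 2 genes, S100a8 was above 0 in every library, with an FPKM of 1.13, 2.11 and 1.29 in M0. It had 16.7, 6.90 and 27.2 in M1 and 4.94, 6.94 and 14.5 in M1 + PBM. The mast cell and basophil list summed to 1.19 to 1.60, 11.0 to 11.4 and 7.03 to 10.3, in M1 and M1 + PBM nearly all of it the histidine decarboxylase gene Hdc, with Mcpt4, Tpsb2 and Fcer1a at 0 throughout. In bulk RNA, fewer cells of a type and less RNA per cell cannot be told apart.

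Compared with M0 macrophages, M1 macrophages held far more RNA of both IL-1 cytokines and of their antagonist, and moderately more of Il18 and Il18bp. M0 was deposited in a separate table, so this comparison has no test and the levels are set side by side. The FPKM of Il1b was 0.285, 0.244 and 25.1 in M0 replicates 1 to 3 and 825.6, 1077 and 843.6 in M1. That of Il1a was 0.237, 1.00 and 10.3 in M0 and 582.8, 679.6 and 354.2 in M1. The single high M0 library of both genes was replicate 3, which also had the high M1-state and stromal sums given above. The part of these in the M0 levels was not tested. The mean FPKM of Il1b in M1 was 107.1 times that in M0, or 3459 times without M0 replicate 3, and for Il1a the values were 139.9 and 868.8. The size of these differences thus rested on 1 library. Even so, the lowest M1 library was 32.9 times the highest M0 library for Il1b and 34.3 times for Il1a.

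The antagonist gene Il1rn had an FPKM of 3.40, 0.782 and 3.30 in M0 and 149.1, 83.2 and 218.3 in M1, a mean that was 60.2 times higher and that was 71.8 times higher without M0 replicate 3. Il18 had 2.28, 2.60 and 2.65 in M0 and 13.5, 16.5 and 15.8 in M1, a 6.08-fold higher mean. Il18 was thus already present in resting cells, at a level that varied little between the 3 M0 libraries. Il18bp had 3.77, 6.09 and 4.34 in M0 and 22.5, 18.1 and 26.0 in M1, a 4.69-fold higher mean. The shared receptor chain Il1rap had 0.933, 0.799 and 1.03 in M0 and 1.43, 1.33 and 2.28 in M1, a 1.82-fold higher mean. In all, 7 of the 9 genes were higher in every M1 library than in every M0 library, the other two being Il1r1 and Il1rl1. For scale, 15.3% of the 13593 rows with 3 or more of these libraries at an FPKM of 1 or above were so placed. Of the 9 genes, 6 passed that minimum and all 6 were so placed. Il1r2, the other gene of the 7, was under it. Il1a, Il1b, Il1rn and Il1rap reach that minimum only through M1, so their count is not read against this share. On the scale of log2(FPKM + 1) the median difference of these rows was -0.35, and the 9 genes lay between -0.29 (Il1rl1) and 8.03 (Il1b).

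**Figure D1:**
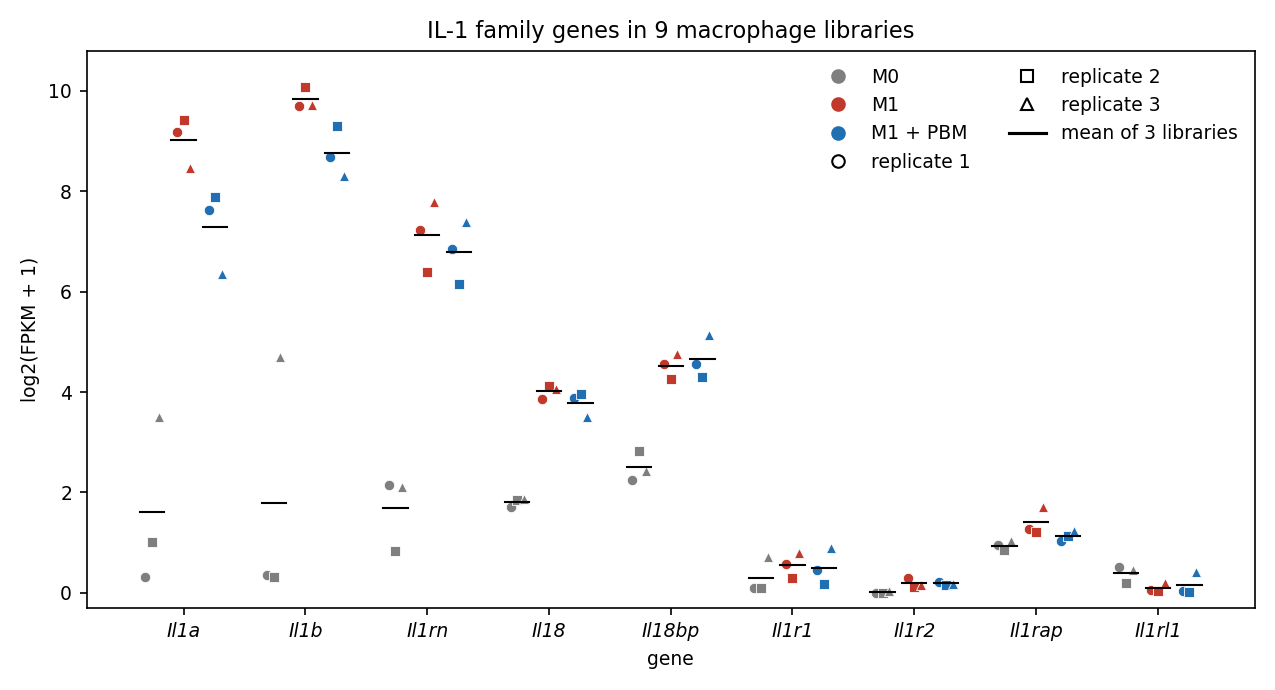
The FPKM of the 9 genes on a scale of log2(FPKM + 1) in the 9 libraries, with colour for the group, marker shape for the replicate number and a bar for the mean of 3 libraries. Il1a, Il1b and Il1rn stand far above M0 in both stimulated groups, M0 replicate 3 lies above the other M0 libraries for Il1a and Il1b, and Il1r1, Il1r2 and Il1rl1 stay below an FPKM of 1.

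With PBM, 7 of the 9 genes were above M0 in every library, again without Il1r1 and Il1rl1. The lowest M1 + PBM library was 7.85 times the highest M0 library for Il1a, 12.6 times for Il1b, 20.5 times for Il1rn, 3.89 times for Il18 and 3.06 times for Il18bp. For Il1rap the same ratio was 1.00, so the groups touched without crossing. Of the 13583 rows that passed the same minimum here, 15.4% were so placed. Of the 9 genes, 6 passed it and all 6 were so placed, again without Il1r2. The same limit holds. Both comparisons use the same M0 libraries.

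Within M1 the levels fell into an order with Il1b at the top (915.3 ± 140.1, SD, n = 3), followed by Il1a (538.9 ± 167.1), Il1rn (150.2 ± 67.5), Il18bp (22.2 ± 3.92), Il18 (15.3 ± 1.54) and Il1rap (1.68 ± 0.526). No library of one of these genes overlapped a library of the next. Below them stood Il1r1 (0.482 ± 0.255), Il1r2 (0.140 ± 0.0793) and Il1rl1 (0.0710 ± 0.0679), and neighbours among these 3 overlapped. The order was the same with PBM, but there Il1a (170.6 ± 80.0) and Il1rn (116.8 ± 48.8) overlapped. In M0 the means ran from Il1b (8.55 ± 14.3) over Il18bp (4.73 ± 1.21), Il1a (3.85 ± 5.61), Il18 (2.51 ± 0.203) and Il1rn (2.49 ± 1.48) to Il1rap (0.922 ± 0.118), and each of these overlapped its neighbour. The IL-1 cytokines stood above Il18bp and Il18 without overlap in both stimulated groups and not in M0.

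Il1a and Il1b were lower with PBM by the thresholds of the study, and no other member was. These thresholds were an unadjusted p of at most 0.05 and a log2 fold change of at least 1 in size, here from limma on log2(FPKM + 1), a scale that understates the change of low genes. Of the 9 genes, 6 reached an FPKM of 1 in 3 or more of the 6 libraries and were tested, 2 of them were lower by the thresholds and 0 were higher. Among all 12238 rows tested, 0.237% were lower and 0.0245% higher by the same rule. The paper reports far more genes by these thresholds, most of them higher with PBM, so this fit does not reproduce its counts. After Benjamini-Hochberg adjustment over all rows, 0 of the 6 genes had a p under 0.05 in limma, 2 had an unadjusted p of at most 0.05, and 1 row in all (0.00817%) passed. Il1a and Il1b were among the inflammatory genes that the study showed from these same libraries, so their direction here is not independent evidence. For IL-1α the paper also reports lower RNA with PBM by RT-PCR and lower protein by ELISA of the culture medium. The median log2 fold change of the 6 genes was -0.31 and 5 of them were negative, beside a median of 0.058 and 34.4% negative among all rows tested. After the libraries were scaled by median-of-ratios, the 6 genes had a median of -0.37 with 5 negative, beside -0.0053 and 51.4% negative among all rows.

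The FPKM of Il1a was 582.8, 679.6 and 354.2 in M1 and 196, 235 and 81.0 in M1 + PBM. The groups did not overlap, as for 2.52% of all rows tested in this direction, and replicate 3 was the lowest library of both groups. The M1 + PBM mean was 31.7% of the M1 mean. The log2 fold change was -1.74 ± 0.44 (SE), with a 95% confidence interval from -2.80 to -0.68 (limma, unadjusted p = 0.00659, adjusted p = 0.90). Within replicate numbers 1 to 3 the log2 difference was -1.57, -1.53 and -2.12. With M1 replicate 2, the library with the high liver gene sum, left out the log2 fold change was -1.54. The two-sided exact permutation test gave p = 0.1, the smallest that 3 libraries against 3 can give.

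The FPKM of Il1b was 825.6, 1077 and 843.6 in M1 and 409.2, 629.0 and 315.5 in M1 + PBM. The groups did not overlap, with M1 + PBM replicate 2 nearest to M1. The M1 + PBM mean was 49.3% of the M1 mean. For Il1b the log2 fold change was -1.07 ± 0.26 (SE), with a 95% confidence interval from -1.70 to -0.43 (limma, unadjusted p = 0.00584, adjusted p = 0.90), and the exact permutation p was 0.1. Within replicate numbers it was -1.01, -0.77 and -1.42, so the fold threshold was passed in replicates 1 and 3 and missed in replicate 2. Il1b missed the fold threshold when M1 replicate 2 was left out (-0.94) or M1 + PBM replicate 3 was left out (-0.84), and 1 member, Il1a, was then past the thresholds.

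The reference genes Il6 and Nos2, which belong to the 8 M1-state genes, were lower by the thresholds as well. The FPKM of Il6 was 21.7, 14.9 and 25.3 in M1 against 3.40, 7.30 and 1.20 in M1 + PBM, a log2 fold change of -2.29 ± 0.47 (SE, limma, unadjusted p = 0.00231). Nos2 had 290.0, 112.1 and 283.6 in M1 and 88.1, 88.8 and 65.9 in M1 + PBM, a log2 fold change of -1.38 ± 0.38 (SE, limma, unadjusted p = 0.00972). The adjusted p of both was 0.90. The 6 other M1-state genes did not pass the thresholds, with log2 fold changes of -0.84 (Il12b), -0.77 (Tnf), -0.50 (Cd86), -0.35 (Cxcl10), -0.10 (Irf1) and 0.068 (Cxcl9). Unlike Il6 and Nos2, whose log2 difference in replicate 2 was -0.94 and -0.33, Il1a changed by more than 1 in all 3 replicate numbers. Whether these genes differ in their change was not tested.

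**Figure D2:**
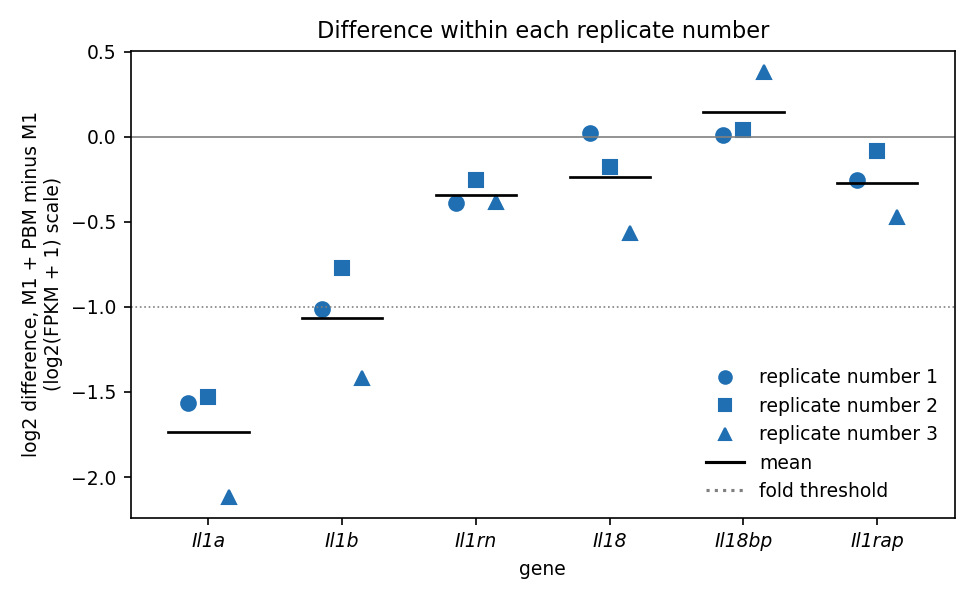
The difference of log2(FPKM + 1) between M1 + PBM and M1 libraries of the same replicate number for the 6 genes tested, with a bar for the mean and a dotted line at the fold threshold of the study. All 3 points of Il1a lie below the line, those of Il1b lie on both sides of it, and those of Il1rn are close together at -0.39, -0.25 and -0.38.

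The antagonist gene Il1rn did not pass the thresholds. Its FPKM was 149.1, 83.2 and 218.3 in M1 and 113.6, 69.7 and 167.1 in M1 + PBM. The groups overlapped widely, and in both groups replicate 3 was highest and replicate 2 lowest. On the log2 scale the change was -0.34 ± 0.43 (SE), with a 95% confidence interval from -1.38 to 0.70 (limma, unadjusted p = 0.458, adjusted p = 0.91, exact permutation p = 0.6). Leaving out 1 library moved it between -0.71 (M1 replicate 2) and -0.018 (M1 + PBM replicate 2). Within replicate numbers the difference was -0.39, -0.25 and -0.38, much narrower than the spread between libraries of 1 group. With the replicate number as a block the SE was 0.076, the interval ran from -0.54 to -0.14 and the unadjusted p of Il1rn was 0.00728 (limma, adjusted p = 0.58). The unadjusted p of Il1rn thus passed 0.05 with the block and missed it without, and the fold threshold was missed either way. Among all rows tested 1.45% were lower at an unadjusted p of at most 0.05 without the block and 3.24% with it.

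The replicate order of Il1rn was shared with other genes. Libraries of replicate 3 were highest and those of replicate 2 lowest for Il1rn, Il18bp, Il1r1 and Il1rl1, in M1 and in M1 + PBM. The summed FPKM of the 8 stromal markers was also lowest in replicate 2, at 14.8, 10.9 and 14.9 in M1 and 25.3, 4.50 and 30.3 in M1 + PBM. In M1 its replicates 1 and 3 were nearly equal, and the stromal gene Col1a1 was highest in replicate 1 (7.24, 4.80 and 6.25). Of the macrophage markers, Itgam and Fcgr1 had the order of Il1rn in both groups and the others did not. Itgam was 72.1, 46.2 and 99.5 in M1 and 102.6, 39.3 and 109.2 in M1 + PBM. The part of stromal RNA in Il1rn, Il18bp, Il1r1 and Il1rl1 was not tested. Il1a had another order, with replicate 2 highest and replicate 3 lowest in both groups.

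Il18 and its binding protein were not distinguishable between the groups. The FPKM of Il18 was 13.5, 16.5 and 15.8 in M1 and 13.8, 14.5 and 10.3 in M1 + PBM. These groups overlapped, and replicate 3 had the widest difference. For Il18 the log2 fold change was -0.24, with a 95% confidence interval from -0.60 to 0.12 (limma, unadjusted p = 0.158, adjusted p = 0.90, exact permutation p = 0.3). The interval excludes a fall of Il18 as large as the fold threshold. Il18bp had 22.5, 18.1 and 26.0 in M1 and 22.7, 18.6 and 34.1 in M1 + PBM. Replicates 1 and 2 were nearly equal in the 2 groups, with log2 differences of 0.010 and 0.037, and replicate 3 was higher by 0.38. The log2 fold change of Il18bp was 0.14 with an interval from -0.43 to 0.72 (limma, adjusted p = 0.93, exact permutation p = 0.6), and it was -0.092 without M1 + PBM replicate 3.

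Receptor RNA was low in all groups. The accessory chain Il1rap was the one receptor gene tested, with an FPKM of 1.43, 1.33 and 2.28 in M1 and 1.04, 1.19 and 1.36 in M1 + PBM. The groups overlapped, and the high value of M1 replicate 3 stood out. Its log2 fold change was -0.27 ± 0.16 (SE), with an interval from -0.65 to 0.10 (limma, adjusted p = 0.90, exact permutation p = 0.2). The signalling receptor Il1r1 had 0.0628, 0.0741 and 0.640 in M0, 0.482, 0.227 and 0.738 in M1 and 0.363, 0.124 and 0.847 in M1 + PBM. All 3 groups of Il1r1 overlapped, and the high M0 value was again that of replicate 3, the library with the high stromal sum. The exact permutation p of M1 + PBM against M1 was 0.8. Over the 9 libraries, an estimated 11.5 to 181.1 fragments at most lay behind the values of Il1r1, by the length of its longest annotated transcript.

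The decoy gene Il1r2 was listed at 0, 0 and 0.0262 in M0, and had 0.231, 0.0836 and 0.106 in M1 and 0.167, 0.109 and 0.136 in M1 + PBM. By the rough depth no more than an estimated 13.2 fragments lay behind any of these, so a difference between M1 and M1 + PBM was not detectable at this depth (exact permutation p = 1). The ST2 gene Il1rl1 had 0.430, 0.146 and 0.375 in M0, 0.0415, 0.0228 and 0.149 in M1 and 0.0309, 0.0140 and 0.330 in M1 + PBM. It was the member with a lower mean in M1 than in M0, but M1 replicate 3 overlapped M0 replicate 2 (exact permutation p = 0.9 for M1 + PBM against M1). An estimated 3.2 to 71.6 fragments at most lay behind its values.

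Ratios of 2 genes within 1 library do not depend on how the library was scaled, and 5 were compared. The ratio of Il1rn to Il1a was 0.256, 0.122 and 0.616 in M1 and 0.579, 0.297 and 2.06 in M1 + PBM. In M1 there was less antagonist than Il1a RNA in every library, and in M1 + PBM replicate 3 there was more. The log2 ratio was higher with PBM by 1.40 on average, and by 1.18, 1.28 and 1.74 within replicate numbers, while the groups overlapped (exact permutation p = 0.3, adjusted over the 5 ratios 0.6). Leaving out 1 library moved the average between 0.63 (M1 + PBM replicate 3) and 2.03 (M1 + PBM replicate 2), with 0.83 for M1 replicate 2. For Il1rn to Il1b the ratio was 0.181, 0.0773 and 0.259 in M1 and 0.278, 0.111 and 0.530 in M1 + PBM, a log2 difference of 0.72 (exact permutation p = 0.4, adjusted 0.6). Within replicate numbers it was higher by 0.62, 0.52 and 1.03. With single libraries left out the difference of Il1rn to Il1b ran from 0.19 (M1 + PBM replicate 3) and 0.23 (M1 replicate 2) to 1.32 (M1 + PBM replicate 2).

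The 2 cytokine genes were also set against each other. The ratio of Il1a to Il1b was 0.706, 0.631 and 0.420 in M1 and 0.479, 0.373 and 0.257 in M1 + PBM, a log2 difference of -0.68 (exact permutation p = 0.2, adjusted 0.6). Within replicate numbers it was -0.56, -0.76 and -0.71, so Il1a was lower by more than Il1b in 3 of 3, and with M1 + PBM replicate 3 left out the average was -0.44. For these 3 ratios the paired exact test over replicate numbers gave p = 0.25, which is the smallest that 3 pairs allow. Il18bp to Il18 was 1.66, 1.10 and 1.65 in M1 and 1.65, 1.29 and 3.30 in M1 + PBM (exact permutation p = 0.5, adjusted 0.6). The ratio of the decoy Il1r2 to Il1r1 was 0.479, 0.368 and 0.144 in M1 and 0.460, 0.876 and 0.160 in M1 + PBM (exact permutation p = 0.6), and it rested on the few Il1r2 fragments given above. The log2 difference of that ratio was 0.45, and it turned to -0.066 with M1 replicate 3 left out and to -0.11 with M1 + PBM replicate 2 left out.

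**Figure D3:**
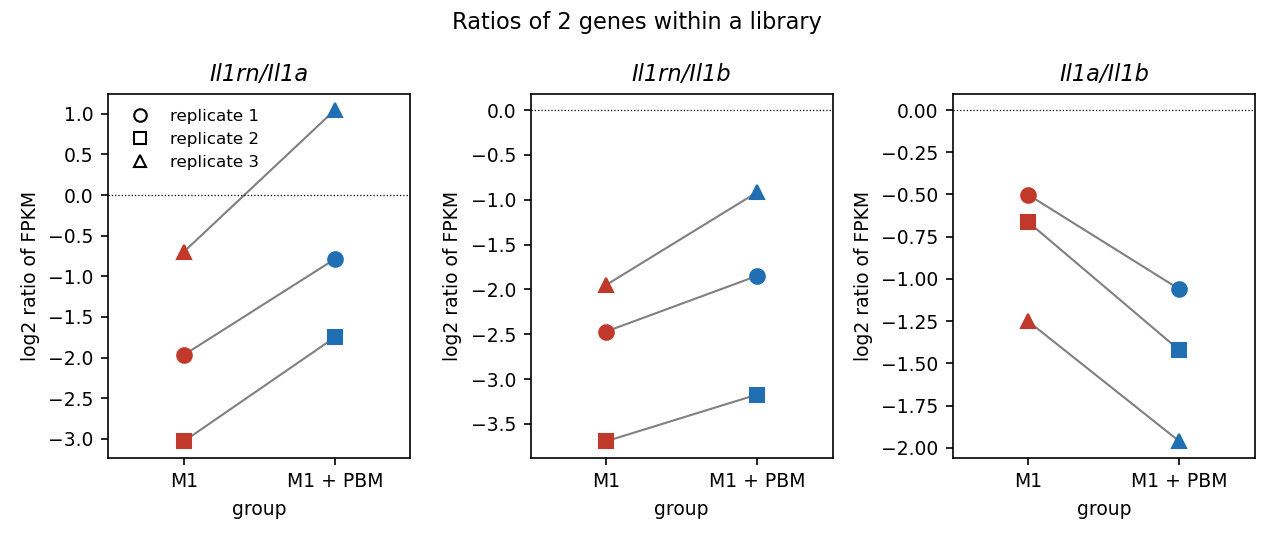
The log2 ratio of 2 FPKM values of the same library in M1 and M1 + PBM, with lines that join libraries of the same replicate number and a separate vertical scale for each panel. All 3 lines go up for Il1rn to Il1a and for Il1rn to Il1b and down for Il1a to Il1b, while the groups overlap in each panel.

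The other genes of the pathway were described as 3 lists, none of which held a gene past the thresholds. The first was the 12 remaining members of the family and its receptors, of which 3 were tested and 0 reached an unadjusted p of at most 0.05. Among all rows tested, 1.45% were lower and 2.99% higher at that p. Il36g, the gene of a cytokine of the IL-36 group, had a mean FPKM of 4.53 ± 2.69 in M1 and of 2.65 ± 2.74 with PBM (SD, n = 3 each), a log2 fold change of -0.70. Il36a, listed at 0 in all M0 libraries, had 1.78 ± 1.31 and 1.04 ± 0.709, and the IL-36 receptor gene Il1rl2 had 2.23 ± 0.889 and 1.59 ± 0.460. The median of the 3 log2 fold changes was -0.37. The 9 others, among them Il33 and the IL-18 receptor genes Il18r1 and Il18rap, were under the minimum, with a highest FPKM of 1.09 in any library.

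The second list was the genes that process and release IL-1 and IL-18, the inflammasome sensors and adaptor, caspases, calpains and pore proteins. All 14 were tested, with 8 log2 fold changes negative and 6 positive and a median of -0.081. At an unadjusted p of at most 0.05, 1 was higher and 0 were lower, beside 2.99% higher and 1.45% lower among all rows tested. This gene was Pycard, which encodes the adaptor ASC that joins inflammasome sensors to caspase-1. Its FPKM was 8.29, 9.55 and 9.09 in M1 and 12.6, 10.2 and 15.5 in M1 + PBM, without overlap, as for 8.51% of all rows in this direction. Its log2 fold change was 0.45 ± 0.16 (SE, limma, unadjusted p = 0.0256, adjusted p = 0.90, exact permutation p = 0.1). In M0 it was 13.4, 11.5 and 13.3, so the M1 libraries were lowest of the 3 groups. In limma the unadjusted p of Pycard was above 0.05 without M1 replicate 1 (0.0814), M1 replicate 3 (0.0508), M1 + PBM replicate 1 (0.0641) or M1 + PBM replicate 3 (0.0625).

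The 3 genes of the processing list with the highest mean FPKM over the 6 M1 and M1 + PBM libraries did not pass. Gsdmd, the gene of the pore protein gasdermin D through which IL-1β leaves the cell, had a mean FPKM of 84.5 ± 11.8 in M1 and of 85.6 ± 4.81 with PBM, a log2 fold change of 0.026. Casp1 had 60.0 ± 7.05 and 56.5 ± 0.697, a log2 fold change of -0.078. Ninj1, which encodes a membrane rupture protein, had 62.8 ± 16.3 and 53.8 ± 3.04, a log2 fold change of -0.18. None of these 3 reached an unadjusted p of 0.05 in limma. The third list was the signalling chain below the receptor, 15 of 16 genes tested, with 8 log2 fold changes negative, 7 positive and a median of -0.025. At an unadjusted p of at most 0.05 it held 0 genes in either direction, beside 1.45% lower and 2.99% higher among all rows tested. Its members of highest mean over these 6 libraries were the adaptor gene Myd88 (77.9 ± 17.0 in M1 and 75.4 ± 7.32 in M1 + PBM), the inhibitory kinase gene Irak3 (39.2 ± 10.1 and 35.7 ± 8.26) and the kinase gene Irak2 (35.9 ± 4.89 and 28.4 ± 5.56, log2 fold change -0.33).

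**Figure D4:**
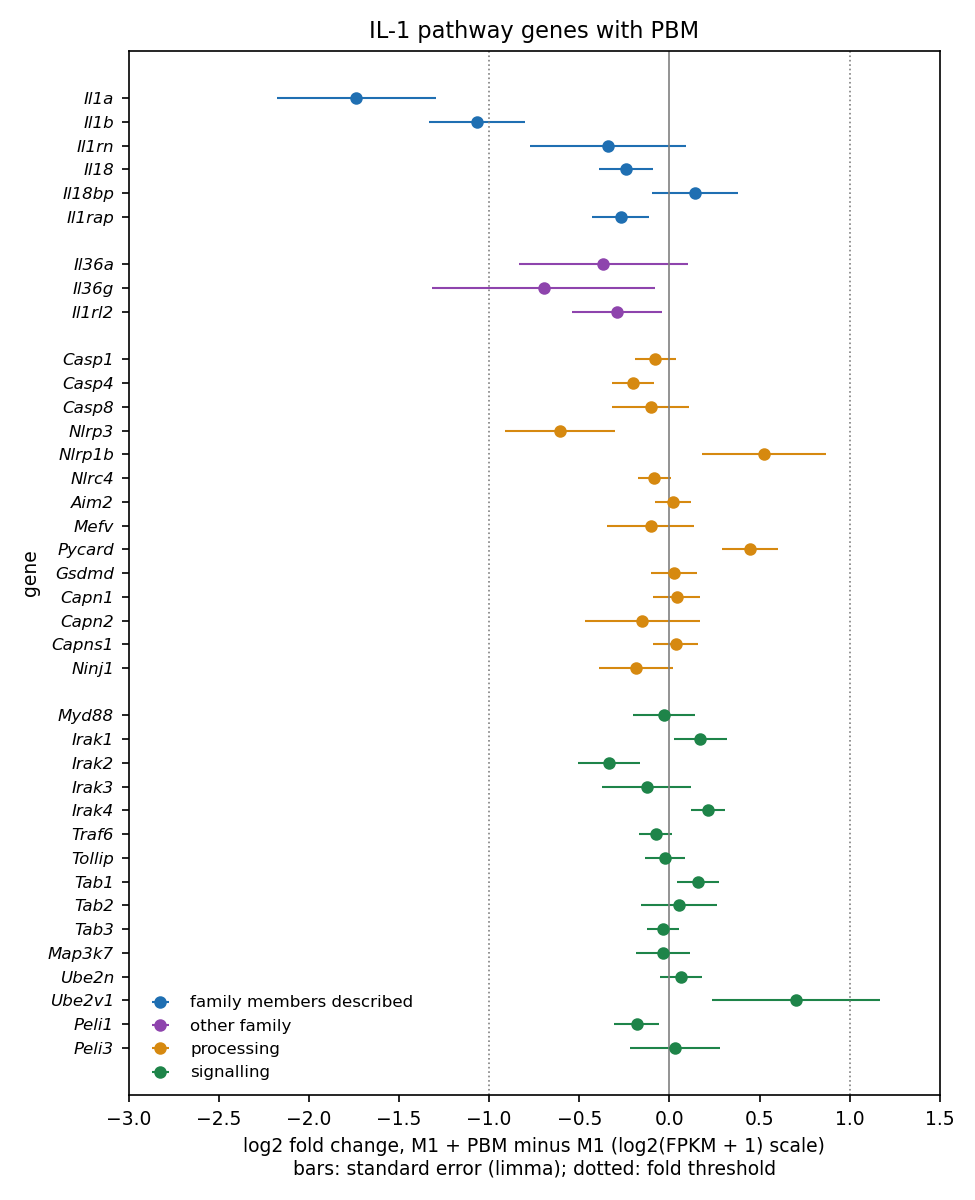
Log2 fold changes of M1 + PBM against M1 on the log2(FPKM + 1) scale for the tested genes of the IL-1 family and pathway, with bars for limma's standard error and dotted lines at the fold threshold of the study. Il1a and Il1b lie below -1, and the genes of the processing and signalling lists lie between -0.61 (Nlrp3) and 0.70 (Ube2v1).

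The genes most like each cytokine were sought among the tested rows with an annotated symbol. The measure was the root-mean-square difference between mean-centred log2(FPKM + 1) profiles over the 6 libraries. This is a description over libraries that the genes share. Nearest to Il1a were Inhba, the activin A subunit gene (0.34), the arginine transporter gene Slc7a2 (0.38) and the cystine transporter gene Slc7a11 (0.40), beside 1.03 for the spread of Il1a itself. Il1b came at rank 7 (0.48). Nearest to Il1b were Plaur, the urokinase receptor gene (0.13), Gm44165 (0.18) and Olr1, the gene of an oxidized lipoprotein receptor (0.22), beside 0.62 for Il1b itself. From this side Il1a came at rank 370.

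Il1rn had other neighbours, Smox, which encodes spermine oxidase (0.11), Gm49759 (0.11) and Basp1 (0.13), beside 0.57 for Il1rn itself. Seen from Il1a, Il1rn came at rank 11367 among the tested rows with a symbol, although both were far above M0 in M1. Seen from Il1rn, Il1a came at rank 11923, and seen from Il18 it came at rank 11855. The profiles were not scaled, and Il1a had a wide spread (1.03), so these ranks do not describe shape alone. Nearest to Il18 were Il15ra (0.044), the guanylate-binding protein gene Gbp7 (0.048) and Cd274, the gene of PD-L1 (0.058), beside 0.20 for Il18 itself. Gbp7 and Cd274 are known IFN-γ response genes.

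Transcripts on the opposite strand of Il1a and Il1b were looked at after their values were seen. The libraries were strand-specific, but whether the counting used the strand is not stated, so reads of a gene and of its antisense partner might not be told apart. Gm14023, which overlaps Il1a on the opposite strand, had an FPKM of 0.112, 0.176 and 0.408 in M0, 10.4, 12.7 and 10.3 in M1 and 7.89, 5.55 and 3.74 in M1 + PBM. Like Il1a, it was higher in M1 than in M0 and lower with PBM, in neither case with overlap. The PBM comparison gave a log2 fold change of -0.89 ± 0.23 (SE, limma, unadjusted p = 0.00722, adjusted p = 0.90, exact permutation p = 0.1). Il1bos, which overlaps Il1b on the opposite strand, had 0.305, 0.268 and 0.255 in M1 and 0.0894, 0.0966 and 0.181 in M1 + PBM, also without overlap (exact permutation p = 0.1). Both stood far below the cytokine gene they overlap, in every library of M1 and M1 + PBM. Il18, Il18bp, Il1r1, Il1r2 and Il1rap also overlap other annotated genes.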

How the data were processed

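RNA-seq libraries of M0, M1 and M1 + PBM macrophages were analysed, 3 of each. Values are FPKM, which the authors deposited as a table of the 3 M0 libraries and a table of the other 6. The paper names Cufflinks methods, and the submitters' processing notes list Bowtie 0.12.2 and mm9, with no role given. Symbols came from GENCODE release M21 on GRCm38 and covered 55154 of 55655 rows. Only 18.1% to 22.8% of low values were whole multiples of 1 fragment within 0.05 (10% if spread evenly), so no count test was run. The depth itself was picked for its fit to such steps, so 10% is too low a reference.

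limma 3.58.1 in R 4.3.3 (eBayes with a trend) was fitted on log2(FPKM + 1) for the 12238 rows that reached an FPKM of 1 in 3 or more of the 6 libraries, and was tested on simulated data. Calls used an unadjusted p of at most 0.05 with a log2 fold change of at least 1 in size, or a Benjamini-Hochberg adjusted p under 0.05. Exact permutation tests went through every split of the libraries, or every sign of the paired differences, with numpy 2.4.6. The M0 table entered no test.

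Members and lists were chosen with earlier results of these data known. Named were the 9 members, from each pathway list the genes at an unadjusted p of at most 0.05 and the 3 of highest mean FPKM, the 3 rows most like Il1a, Il1b, Il1rn and Il18, and Il6 and Nos2. Any other gene was picked with its values in view.

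The replicate numbers were checked as pairs. Deviations from the group means correlated between same-numbered M1 and M1 + PBM libraries (r = 0.157, 0.469 and 0.462, across genes). For different numbers r lay between -0.491 and 0.0328. The deviations of a group cancel out for each gene, so positive values for same numbers lower those for different numbers. The numbers were taken to pair the libraries in the block and in paired differences, from the data and not from the labels. The sample descriptions of same-numbered M1 and M1 + PBM libraries end in consecutive numbers, and what these mark is not stated. The main fit had no pairing. The alternatives left out each library in turn, added the replicate block, changed the pseudocount to 0.1, dropped the FPKM minimum or set it at a mean of 5, scaled by median-of-ratios or by quantiles, or dropped the trend of eBayes.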

Additional observations from a re-analysis of the deposited data

How the results depend on the processing

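With a pseudocount of 0.1 in place of 1, 75 rows passed the thresholds in place of 32, and leaving out single libraries gave 27 to 89 (69 for M1 replicate 2 and 89 for M1 + PBM replicate 2). The count at an adjusted p under 0.05 was 1 in all 13 alternatives. Of the members, 1 to 2 passed when single libraries were left out, and 2 in each of the 7 other alternatives. Il1a kept its call in all 13, with a log2 fold change from -2.03 to -1.27 and an adjusted p from 0.36 to 1.00 (limma). Il1b ranged from -1.34 to -0.84 when libraries were left out and missed the fold threshold in the fits that leave out M1 replicate 2 (-0.94) or M1 + PBM replicate 3 (-0.84). Il18bp ranged from -0.092 (without M1 + PBM replicate 3) to 0.33. Pathway genes at an unadjusted p of at most 0.05 numbered 1, 2 with no minimum FPKM (Irak4 added), and 0 to 4 when libraries were left out. Leaving out a library moved the log2 ratio of Il1r2 to Il1r1 between -0.11 and 1.11 (-0.066 for M1 replicate 3 and -0.11 for M1 + PBM replicate 2). The log2 ratios of Il1rn to Il1a, Il1rn to Il1b and Il1a to Il1b kept their sign in every alternative and ranged from 0.63 to 2.03, 0.19 to 1.32 and -0.90 to -0.44. The cause of these shifts was not tested. With the replicate block, Il1a was -1.74 ± 0.14 (SE, limma, adjusted p = 0.36), and beside the unadjusted p of Il1rn (0.00728 with the block) it changed no call of a member, ratio or pathway gene. A mean FPKM of at least 5 gave no value for Il1rap. The count of 7 members higher in M1 than M0 was 8 without M0 replicate 3, where Il1r1 joined them. Without M0 replicate 2 or without M1 replicate 3, Il1rl1 was lower in M1 than in M0 without overlap. Having 3 libraries per group and the low fragment numbers of Il1r1, Il1r2 and Il1rl1 limits what could be detected.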
